A study of Mus musculus with 4 samples.

Results

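The cytosolic ribosomal protein genes are the nuclear genes for the protein part of the ribosome in the cytosol. They were taken as the protein-coding rows of the count table whose symbols carry the Rps or Rpl name with its number and suffix, plus Rplp0, Rplp1, Rplp2 and Rpsa. The rule found 84 of the 55471 genes in the table, 32 of the small and 52 of the large subunit. It used names only and no measured value. The data are 4 strand-marking poly(A) RNA libraries of 1 group, made from brain cells that carry the myeloid surface protein CD11b and were taken out with magnetic beads. All mice had PLX5622, which blocks CSF1R, the receptor that microglia need to survive, for 7 days and then 10 days without it, 17 days in all, and were 10 to 13 weeks old. The strain is not given in the sources used here, and nothing in the labels ties a library to an animal of its own. The p-values therefore speak only of these 4 samples, and differences among them may be technical. With no untreated group, the text gives levels and their spread, not a drug effect.

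A ribosome has a small subunit, which binds the mRNA and reads its codons, and a large subunit, which joins amino acids and carries the tunnel through which the new chain leaves. Most of the proteins are needed in equal amounts, and their genes are known for broad, coordinated expression. Most of these mRNAs begin with a C and a run of pyrimidines, the terminal oligopyrimidine tract through which the mTORC1 kinase pathway and the protein LARP1 control their translation. The genes have left many processed pseudogenes in the genome, which makes their short mRNAs hard to count from sequencing reads.

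Promoter sequences were found for 64 of the 84 genes in the RefSeq table of the GRCm38.p6 build, which gives 250 bases before and 50 after each annotated start. The letters CCGGAA, the core bound by ETS factors such as GABP, were present on either strand in 35 of the 64 genes (54.7%), against 16.7% of all 27025 genes in the table. A C within 5 bases of the annotated start, followed by at least 4 pyrimidines on the strand that reads like the mRNA, was present in 29 (45.3%), against 21.2% of all genes. AAGATGGC, a form of the YY1 site, was present on either strand in 6 (9.38%, against 3.19%), and TATAAA in 7 (10.9%, against 15.7%). A gene with several annotated starts counted when any of them matched, and a match is a description of the letters and not a measured site. Windows from 40 bases before to 15 after the start are shown for the 3 genes whose spread between libraries passed the test below and for Rpl39l and Rpl38, with CCGGAA or its complement in capitals. They lie at chr8:123102310-123102364 (Rpl13, plus strand), chrX:37085208-37085262 (Rpl39, minus strand), chr10:128549154-128549208 (Rpl41, minus strand), chr16:10170188-10170242 (Rpl39l, plus strand) and chr11:114668540-114668594 (Rpl38, plus strand). Rpl39 and Rpl41 had CCGGAA or its complement outside the printed window, within the 250 bases before and 50 after the start, and Rpl13 did not.
Rpl13: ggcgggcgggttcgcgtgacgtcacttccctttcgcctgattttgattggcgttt
Rpl39: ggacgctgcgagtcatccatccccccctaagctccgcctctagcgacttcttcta
Rpl41: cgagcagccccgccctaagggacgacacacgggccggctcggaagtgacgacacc
Rpl39l: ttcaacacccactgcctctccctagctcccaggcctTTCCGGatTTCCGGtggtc
Rpl38: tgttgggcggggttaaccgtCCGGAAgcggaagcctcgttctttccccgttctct

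Total counts were 23036202 to 24487418 per library. Levels are in CPM, counts divided by the library total and multiplied by 1e+06, with totals adjusted by edgeR's TMM factors. The 16 homeostatic microglial markers all reached 1 CPM in every library. They summed to 47711.5, 41543.7, 46683.8 and 38378.5 CPM in libraries 1 to 4, higher in libraries 1 and 3 than in libraries 2 and 4. Markers of other cells were present too, and library 3 stood apart. The 10 choroid plexus markers summed to 3374 CPM there and to between 16182 and 22628 CPM in the others, the 10 endothelial markers to 231 against 854 to 999, and the 9 pericyte and smooth muscle markers to 101 against 445 to 687. The 7 border-associated macrophage markers summed to 668 CPM in library 1 and to between 266 and 319 in the others. Erythroid markers summed to 365, 174, 32.4 and 65.9 CPM in libraries 1 to 4 and oligodendrocyte markers to 868, 473, 391 and 602, so library 1 was the highest for these lists too. Summed levels of the other lists were 207 to 293 CPM for astrocyte, 15.9 to 27.5 for neuron, 48.6 to 57.0 for monocyte, 15.1 to 65.3 for neutrophil and 1.23 to 1.67 for T and B cell markers. No marker measured was at 0 in all libraries, and in bulk RNA fewer cells of a type and less RNA per cell cannot be told apart.

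The 84 genes held 263725, 166005, 256438 and 196244 counts in libraries 1 to 4. That was 1.08%, 0.721%, 1.09% and 0.801% of all counts, with exact 95% Clopper-Pearson intervals of 1.076% to 1.084%, 0.717% to 0.724%, 1.083% to 1.091% and 0.798% to 0.805%. The intervals hold for the counting of reads alone, as no molecular identifiers mark separate molecules. Libraries 1 and 3 were high and nearly equal, and libraries 2 and 4 were lower, with the lowest 1.51-fold below library 3. The mean share was 0.922% ± 0.189 (SD, n = 4).

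The genes differed far more from each other than any gene differed between libraries. Mean levels ran from 0.052 to 884 CPM with a median of 45.2 CPM. In all, 24 genes reached 100 CPM, 35 lay between 10 and 100 and 25 lay under 10. The 5 highest held 36.9% of the summed CPM and the 10 highest held 56.5%. Of the 84 genes, 78 reached 1 CPM in every library.

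**Figure D1:**
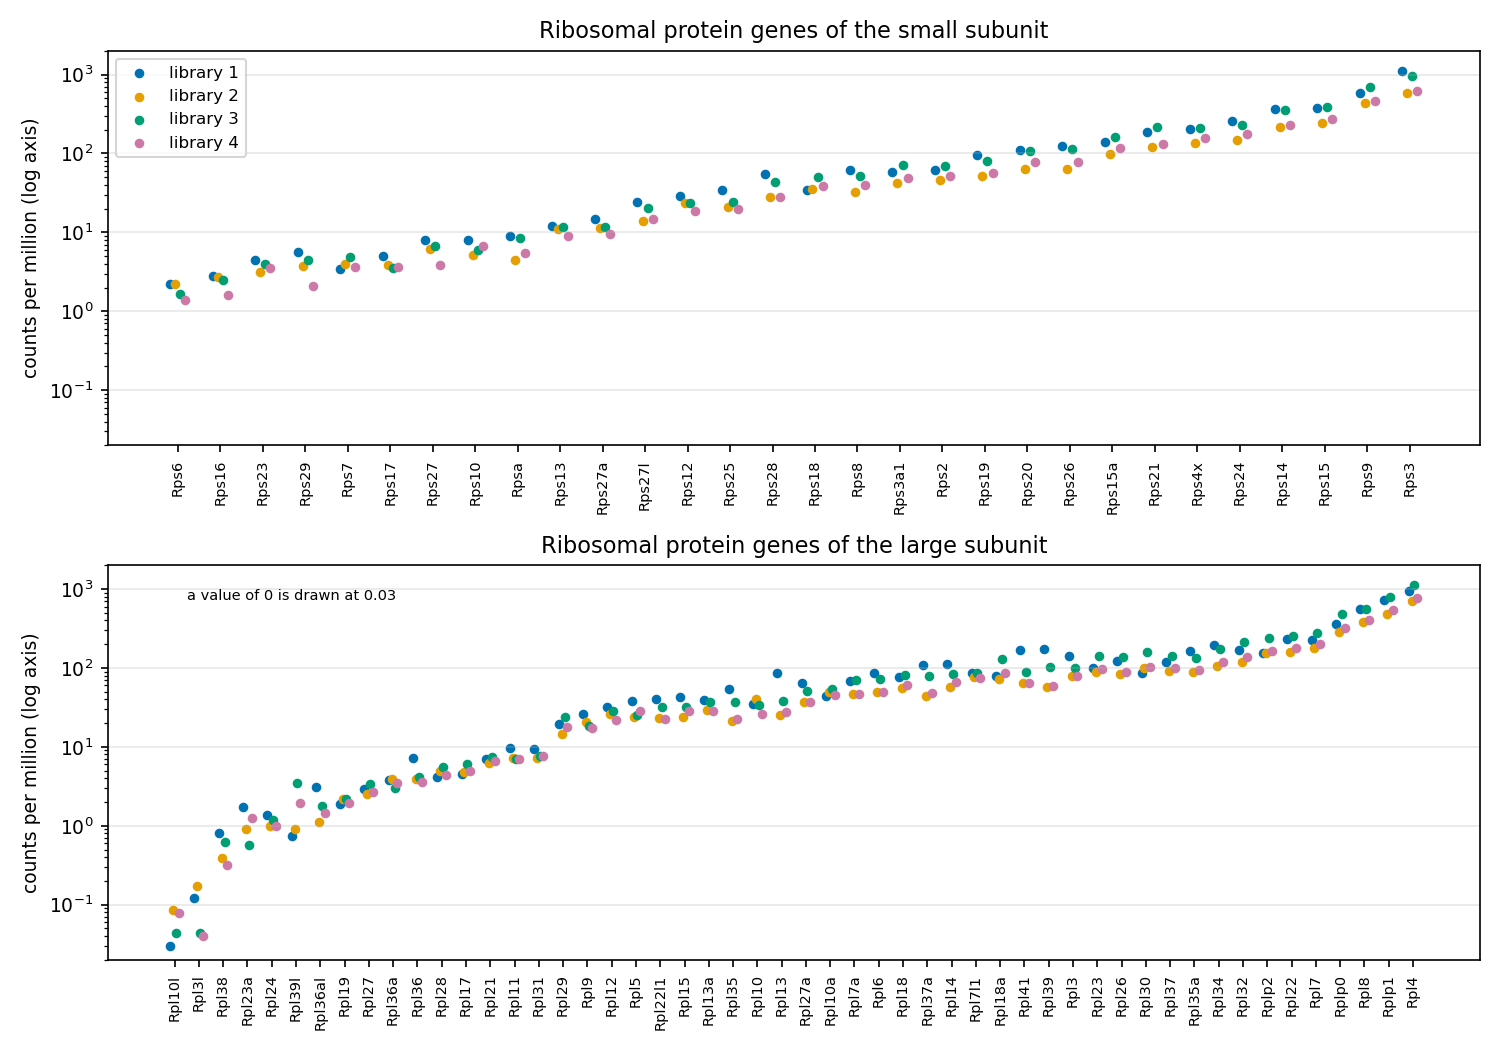
CPM of the ribosomal protein genes, a few of them not drawn, on a log axis, with 1 point per library, small subunit above and large subunit below, ordered by mean. Levels span from Rpl10l at 0.052 to Rpl4 at 884 CPM, while points of 1 gene lie close together, with libraries 1 and 3 mostly above 2 and 4.

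The highest genes by CPM belonged to both subunits. Rpl4, whose protein lines the exit tunnel, had 955, 700, 1110 and 773 CPM in libraries 1 to 4. Rps3, which sits where mRNA enters the small subunit, had 1105, 583, 959 and 624 CPM. Both genes were higher in libraries 1 and 3 than in libraries 2 and 4, with no overlap between those pairs. Rps9, of the body of the small subunit, had 540 ± 116 CPM (SD, n = 4), and Rpl8, near the peptidyl transferase centre, had 473 ± 93.8 CPM. Levels of different genes are compared per length, as CPM per kilobase (kb) of annotated exons. On that scale Rplp1 led at 1277, and Rps15 had 513, Rpl4 441 and Rpl8 348 CPM per kb (Rps15 was chosen after its values were seen). The 84 genes had a median of 18.6 CPM per kb.

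The stalk of the large subunit, which recruits elongation factors, is built from Rplp0, Rplp1 and Rplp2. All were abundant but not equal. Rplp1 had 732, 477, 789 and 550 CPM, Rplp0 360, 286, 481 and 316 CPM, and Rplp2 156, 155, 242 and 166 CPM. Each was highest in library 3 and lowest in library 2. Per kb of exons, Rplp0 had 217 and Rplp2 86.6, both well under Rplp1.

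Rpl5 and Rpl11, which bind the 5S rRNA and can hold the p53 regulator MDM2, were modest. Only 14.6% of the sequence of Rpl5 and 46.0% of that of Rpl11 occurs in no other gene, counted as below, so both levels are uncertain. Rpl5 had 37.8, 24, 25 and 28.2 CPM, highest in library 1. Rpl11 had 9.55, 7.26, 7.04 and 7.10 CPM, again highest in library 1 with the others close together. Rps6, the ribosomal substrate of S6 kinase, had only 2.2, 2.2, 1.67 and 1.39 CPM. Rps19, a gene mutated in Diamond-Blackfan anaemia, had 95.2, 52.0, 80.2 and 56.4 CPM, with libraries 1 and 3 above the others.

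Several genes known for roles beyond the core of translation were spread over the range. Rpl13a, which restrains translation of inflammatory mRNAs when it leaves the ribosome, had 38.7, 29.1, 36.9 and 28.7 CPM. Rpsa, also described as a laminin receptor, had 8.89, 4.49, 8.45 and 5.44 CPM. In both, libraries 1 and 3 exceeded libraries 2 and 4. Rpl10a, found to be absent from a share of ribosomes, had 44.2, 49.8, 54.8 and 45.8 CPM, and Rps25, another such protein, 34.0, 20.8, 24.5 and 19.8 CPM. These 2 genes differed in order, with library 1 lowest for Rpl10a and highest for Rps25. Rpl38, needed for translation of Hox mRNAs in the mouse embryo, had 20, 9, 14 and 8 counts, or 0.535 ± 0.227 CPM (SD, n = 4).

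Low levels occurred together with shared sequence in some genes and without it in others. For each gene, the share of the 50-base stretches of its protein-coding transcripts that occur in no other gene of GENCODE M21 was counted and is called unique sequence. It ran from 4.91% for Rpl35 to 100% with a median of 64.2%, and 47 of the 84 genes shared stretches with 10 or more other genes. How reads that map to several genes were counted is not given in the sources used here, so a gene with little unique sequence is uncertain in level. The 28 genes with under 50% unique sequence had a median of 31.6 CPM and 15.5 CPM per kb, and the other 56 had 75.1 CPM and 22.4 CPM per kb. Across the 84 genes, unique sequence and log2 of CPM per kb (plus 0.5) had a Pearson r of 0.21 and a Spearman rho of 0.26, a description over genes that share libraries and are not independent replicates. Rps6 (15.4% unique), Rpl24 (18.3%, 1.14 CPM) and Rpl23a (14.3%, 1.13 CPM) were low with little unique sequence, while Rpl38 was low with 72.6% and Rplp1 was the highest per kb with 40%. The 2 paralogues Rpl3l and Rpl10l were low with 100% and 92.4%. Exons of another gene on either strand covered 66.2% of Rpl35, 62.3% of Rpl23a and 47.0% of Rpl24, and at least 10% of 16 genes in all. On the same strand alone they covered 0%, 2.6% and 47.0% of these 3 genes, and at least 10% of 10 genes in all. Which of these applies is uncertain, as the strand setting of the counting is not given. The 294 pseudogene rows named after ribosomal protein genes held 1151 to 1928 counts per library, 0.005% to 0.0079% of the total, and 85 of them had no count.

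**Figure D2:**
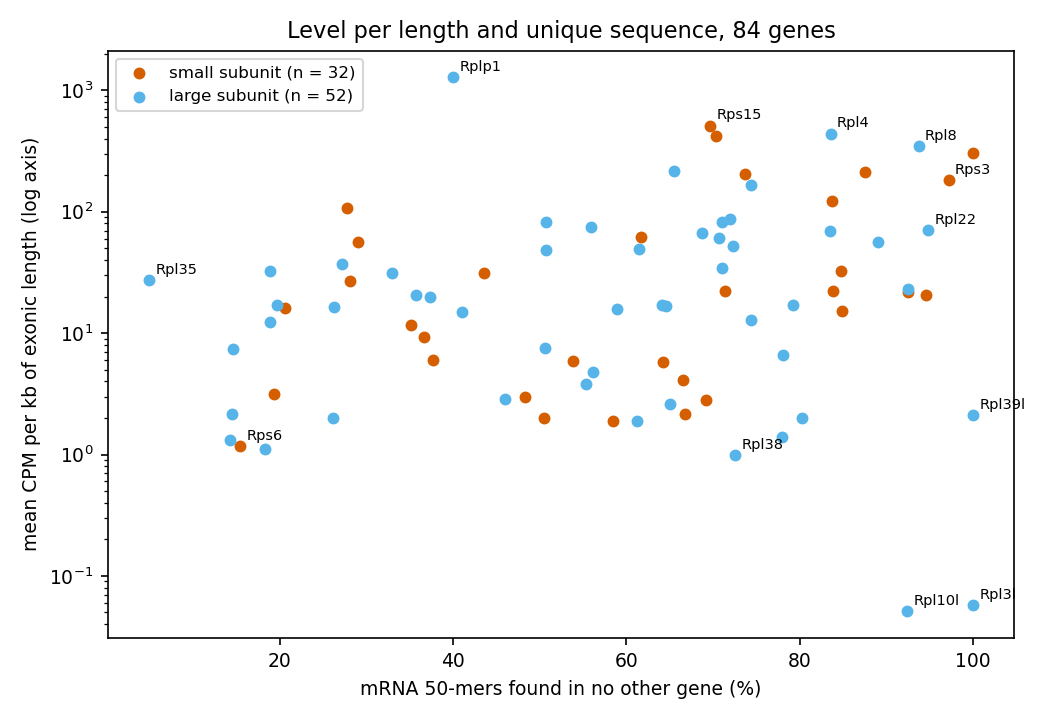
Mean CPM per kb of exonic length on a log axis against the share of 50-base stretches of the mRNA found in no other gene, 1 point per gene, small and large subunit in separate colours. The points run from Rpl35 at 4.91% unique to Rpl39l at 100%, and the 2 lowest points are the paralogues Rpl3l and Rpl10l.

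Small and large subunit genes were close per length. The median of log2(CPM per kb + 0.5) was higher for the 32 small than for the 52 large subunit genes by 0.19, 0.10, 0.27 and 0.15 in libraries 1 to 4, a mean of 0.17 ± 0.07 (SD, n = 4). Flipping the signs of the 4 values in every way, an exact two-sided permutation test, gave p = 0.125, the smallest it can give (2 of 16 sign flips), so no difference could pass 0.05. The sign turned without the 7 paralogues, to -0.11 ± 0.21, and among the 78 genes of at least 1 CPM in every library, to -0.14 ± 0.17. Over the 10 genes with at least 90% unique sequence, among them Rpl3l, Rpl10l and Rpl39l of the large subunit, it was 3.07 ± 0.50, and without division by length 0.05 ± 0.22. The small subunit held 45.6%, 44.2%, 45.3% and 44.4% of the counts of the 84 genes.

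Against the 78 genes for proteins of the mitochondrial ribosome, which translates the mitochondrial genome, the cytosolic genes were higher per length in every library. The gap was 1.37, 1.22, 1.57 and 1.24 on the log2(CPM per kb + 0.5) scale, a mean of 1.35 ± 0.16 (SD, n = 4), or 2.55-fold. The exact sign-flip permutation p was again 0.125. The gap was largest in library 3 and smallest in library 2.

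Most cytosolic genes followed a common pattern between libraries, high in libraries 1 and 3 and low in libraries 2 and 4. Of the 84 genes, 81 had enough counts to be tested (all but Rpl3l, Rpl10l and Rpl38). In 58 of these 81, both library 1 and library 3 were above both library 2 and library 4, as in 23.7% of all 14112 tested genes. The same order was found in 236 of 540 other genes with an mRNA under 1000 nt (43.7%). It was also found in 42 of 77 tested mitochondrial ribosomal protein genes and in 10 of 16 homeostatic microglial markers. This rule was chosen after the values were seen. The median deviation from a gene's own mean was 0.25, -0.30, 0.22 and -0.19 (log2) in libraries 1 to 4, against 0.03, 0.01, 0.01 and 0.01 over all tested genes. The 16 homeostatic microglial markers stood at 0.20, -0.10, 0.13 and -0.18. Both subunits shared the pattern of the ribosomal protein genes, with 24 of 32 small and 34 of 49 large subunit genes. Among the 8 tested genes with at least 90% unique sequence it held in 7. When libraries were scaled instead to the homeostatic microglial list, it held in 18 of 81 and in 1.38% of all tested genes, since that scaling shifts every gene and moved the median deviation of all genes to -0.37, 0.12, 0.02 and 0.29. The ribosomal protein genes then stood at -0.15, -0.18, 0.23 and 0.09, above the median of all genes in libraries 1 and 3 and below it in libraries 2 and 4. As the scaling shifts all genes of a library nearly alike, this place against all genes could hardly change. It is therefore no separate check of the pattern.

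Within the pattern, genes divided by which of the 2 high libraries led. Library 1 was highest in 45 of the 81 genes (34.2% of all tested genes) and library 3 in 33 (28.3%). Library 1 led more often in the other short mRNAs (72.6% of 540) and in the mitochondrial ribosomal protein genes (63 of 77) than in the 81 (55.6%), and library 3 led in 13.3% of the short mRNAs. Library 2 was highest in 3 (16.5%) and library 4 in 0 (20.9%). The lowest library was 2 in 51 genes (19.5%), 4 in 17 (20.3%), 1 in 9 (31% of all genes) and 3 in 4 (29.2%). Without library 1, library 3 was highest in 68 of 81 genes (45.2% of all genes), and library 2 lowest in 56 (29.6%). Without library 3, library 1 was highest in 68 of 81 (41.1%), beside 79.6% of the short mRNAs. Scaled to the homeostatic list, library 1 was highest in 9 of the 81 (3.55% of all genes) and lowest in 42 (69.5%), and library 3 was highest in 50 (10.8%).

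**Figure D3:**
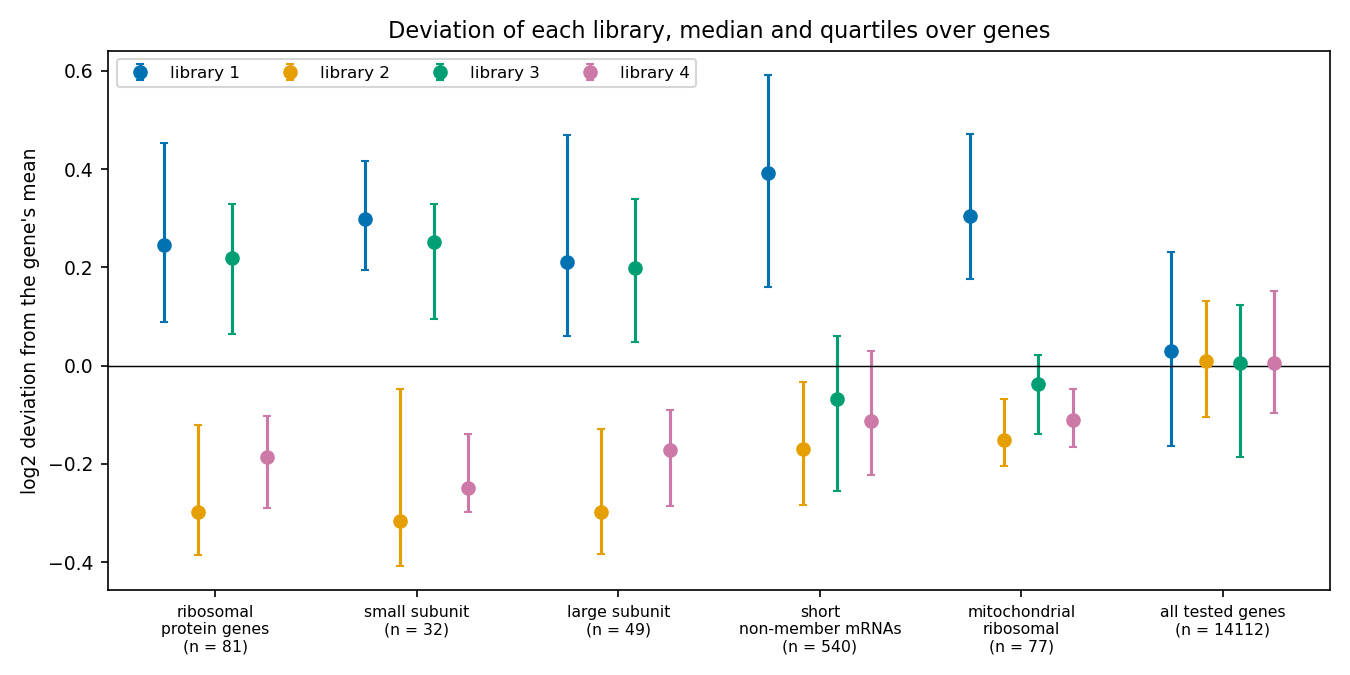
Deviation of each library from the gene's mean of log2(CPM + 0.5), as the median (point) and quartiles (bars) over the genes of each set. The ribosomal protein genes sit at 0.25 in library 1 and 0.22 in library 3, while short mRNAs of other genes sit at 0.39 and -0.07.

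The higher level in library 1 was also found in other short mRNAs, and that in library 3 was not. The 84 mRNAs are short, with a median of 942 nt for the longest coding transcript. Among the 540 tested protein-coding genes outside the set with an mRNA under 1000 nt, the median deviations were 0.39, -0.17, -0.07 and -0.11 in libraries 1 to 4. The 206 tested genes outside the set with an exonic length under 1000 nt gave 0.46, -0.19, -0.11 and -0.13. In library 1 the deviation was higher the shorter the mRNA, from -0.14 for 5000 nt or more to 0.44 for under 700 nt. The 22 ribosomal protein genes under 700 nt stood at 0.41 there, beside 0.44 for the 146 other genes of that length, and the 24 of 700 to 1000 nt stood at 0.16 beside 0.38. In library 3 the same 2 length classes stood at 0.20 and 0.26, beside -0.09 and -0.06 for other genes. Library 2 was lower for the ribosomal protein genes in both classes, at -0.31 and -0.29 beside -0.21 and -0.16. Mitochondrial ribosomal protein genes followed the short mRNAs, with 0.30, -0.15, -0.04 and -0.11 over 77 tested genes. The part of mRNA length, RNA quality and the marker lists in these differences was not tested.

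**Figure D4:**
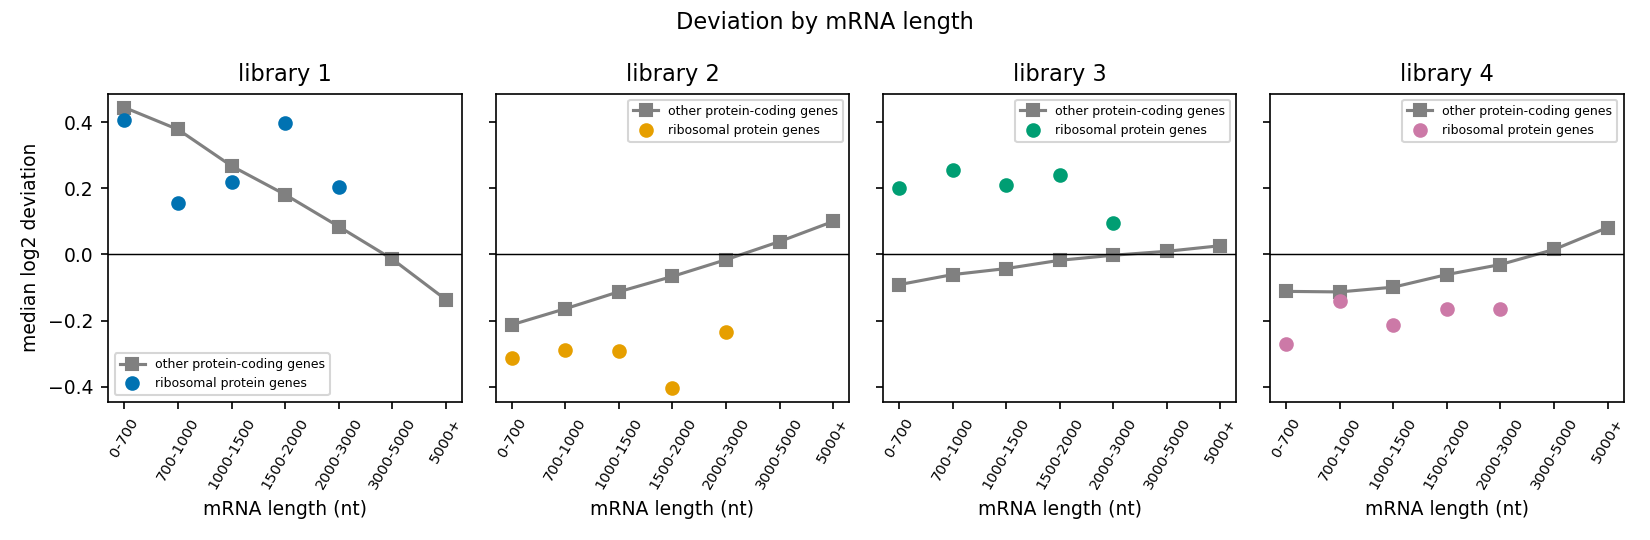
Median log2 deviation by mRNA length, 1 panel per library, for other protein-coding genes (grey squares) and ribosomal protein genes (circles, shown for classes of at least 5 such genes). Other genes climb to 0.44 at short lengths in library 1, and only in library 3 do the ribosomal protein genes lie above 0 while other short genes lie below it.

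Gene by gene, few members varied more than genes of their level. The test set each gene's residual deviance between the 4 libraries, in a negative binomial fit with a trended dispersion in edgeR, against the chi-square distribution with 3 degrees of freedom, with Benjamini-Hochberg adjustment over all 14112 genes. It called 3 of 81 ribosomal protein genes at an adjusted p under 0.05, beside 3.28% of all tested genes, so the share of members called (3.7%) was near the background. At an unadjusted p under 0.05 there were 10 members, beside 1350 of all 14112 tested genes. All 3 called genes were of the large subunit and highest in library 1. Without library 1 none of the 81 was called in edgeR (13 at an unadjusted p under 0.05). Of all 14277 genes then tested, 425 were called (1275 at an unadjusted p under 0.05). Without library 3 the count of members was 5, with Rpl35 and Rpl37a added, beside 106 of all 14802 genes then tested. A quasi-likelihood test set each gene's deviance, scaled by a prior variance, against an F distribution with 2.62 prior degrees of freedom. It called 0 members and 0 of all genes (5 and 658 at an unadjusted p under 0.05). With so few prior degrees of freedom it could call few genes, so its 0 says little about the 3 edgeR calls. Even Rpl39 had an unadjusted quasi-likelihood p of 0.0169. The dispersion outliers of DESeq2 held 0 members, beside 5 of all genes. With a common dispersion Rpl13 and Rpl39l were called, beside 1058 of all genes.

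Rpl39 (ENSMUSG00000079641), whose small protein lies in the exit tunnel, spans chromosome X, 37082520 to 37085402. It had 175, 57.5, 103 and 58.6 CPM, with library 1 highest by 1.70-fold over library 3 and libraries 2 and 4 close together. The edgeR adjusted p was 0.00102. Rpl13 (ENSMUSG00000000740), a protein of the large subunit surface, spans chromosome 8, 123102350 to 123105244. It had 85.7, 25, 38.2 and 27.6 CPM, so that library 1 alone was far above the others, and the edgeR adjusted p was 0.00196. With 19.7% unique sequence its level is uncertain. Rpl41 (ENSMUSG00000093674), which encodes one of the smallest known proteins, spans chromosome 10, 128548114 to 128549305. It had 169, 64.1, 88.9 and 64.8 CPM, once more led by library 1, with an edgeR adjusted p of 0.0111 that became 0.0817 without library 2 and 0.0987 without library 4. All 3 mRNAs are short, at 612 (Rpl39), 780 (Rpl13) and 582 nt (Rpl41).

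Other genes of wide range went the same way without passing the test. Rpl35 had 53.8, 21.4, 37.3 and 22.4 CPM (edgeR adjusted p = 0.147) and Rpl37a 108, 44.5, 78.9 and 47.6 CPM (edgeR adjusted p = 0.0679). In both genes the order of libraries was 1, 3, 4 and 2. The steadiest genes of at least 10 CPM were Rpl7l1, with 1.14-fold between its highest and lowest library, Rpl10a (1.24-fold), Rpl13a (1.35-fold), Rps13 (1.36-fold) and Rps18 (1.43-fold). The 59 genes of at least 10 CPM had a median of 1.69-fold and a highest value of 3.43-fold, for Rpl13.

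In a few genes library 1 was the lowest. Rpl30, of the interface between the subunits, had 87.5, 101, 160 and 102 CPM, lowest in library 1 and 1.82-fold higher in library 3, with an edgeR adjusted p of 0.773. It was chosen after its values were seen, and with 27.2% unique sequence its level is uncertain. In all, 8 genes were highest in library 3 and lowest in library 1, and none was highest in library 4 under TMM scaling.

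**Figure D5:**
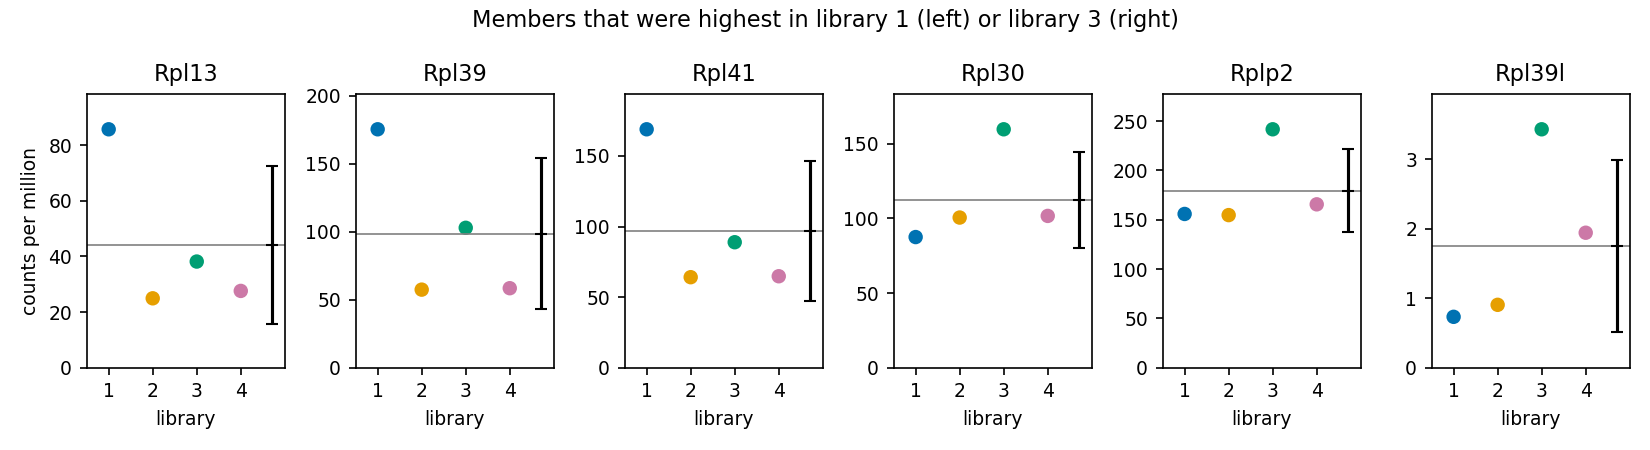
CPM by library for 6 members, with the mean as a grey line and the SD (n = 4) as a bar at the right of each panel. Rpl13, Rpl39 and Rpl41 are highest in library 1, and Rpl30, Rplp2 and Rpl39l are highest in library 3.

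Of the paralogues, which are genes related to a ribosomal protein gene, some of them with expression in particular tissues, 7 were in the set. The Rpl39 and Rpl39l pair is shown because its members were highest in different libraries. Their coding sequences, read from GENCODE M21 transcripts on GRCm38, are of equal length (156 nt) and 85.3% identical, with 23 differing bases in capitals, and they share no 50-base stretch.
Rpl39l: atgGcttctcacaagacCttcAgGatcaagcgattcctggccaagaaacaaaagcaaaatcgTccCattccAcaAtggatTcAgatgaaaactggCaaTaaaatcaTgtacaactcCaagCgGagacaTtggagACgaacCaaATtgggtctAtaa
Rpl39: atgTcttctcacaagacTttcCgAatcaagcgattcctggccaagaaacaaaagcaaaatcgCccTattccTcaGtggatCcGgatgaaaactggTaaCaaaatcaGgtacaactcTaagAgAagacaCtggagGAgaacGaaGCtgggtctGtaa

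Rpl39l, a paralogue best known from testis, had 18, 21, 78 and 49 counts in libraries 1 to 4, or 0.734, 0.907, 3.43 and 1.94 CPM. It was highest in library 3 and lowest in library 1, where Rpl39 was highest. Its edgeR adjusted p was 0.324. Per length, Rpl39l stood below Rpl39, with log2 ratios of (CPM per kb + 0.5) of -6.47, -4.67, -3.96 and -3.86 and a mean of -4.74 ± 1.21 (SD, n = 4). The distance was widest in library 1 and alike in libraries 3 and 4.

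Rps27l was the 1 paralogue that exceeded its partner in all libraries. It had 24.3, 14.0, 20.2 and 14.6 CPM, and Rps27, whose protein belongs to the small subunit, had 7.91, 6.22, 6.65 and 3.89 CPM. Per length the log2 ratio was 1.84 ± 0.28 (SD, n = 4), or 3.58-fold. Of the mRNA of Rps27, 53.8% was unique, against 83.8% for Rps27l, so the size of this ratio is uncertain. Their coding sequences are 76.1% identical.

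Rpl22l1 and Rpl22, known for opposite effects in developing blood cells, had 39.9, 23.2, 32.0 and 22.8 CPM and 234, 160, 252 and 180 CPM. Per kb of exons Rpl22l1 was lower in every library, with a log2 ratio of -2.23 ± 0.20 (SD, n = 4), and only 41.1% of its mRNA was unique. Per kb of the longest coding transcript the mean levels were 53.4 CPM for Rpl22l1 and 101 for Rpl22. The size of this ratio thus depends on the length used. Rpl7l1 was lower than Rpl7 in every library, with 85.8, 75.7, 86.2 and 75.6 CPM against 228, 177, 276 and 199 CPM and a log2 ratio per length of -1.79 ± 0.19 (SD, n = 4). Rpl36al and Rpl36a were both near the bottom, at 1.88 ± 0.883 and 3.54 ± 0.385 CPM. Their log2 ratio per kb of exons of -0.53 ± 0.48 had a different sign in library 1 (0.02) than in the others. Per kb of the longest coding transcript their mean levels were 1.48 and 7.34 CPM, so this ratio depends on the length used. Only 14.5% of the mRNA of Rpl36a was unique, against 77.9% for Rpl36al. Rpl3l, a gene of striated muscle, had 3, 4, 1 and 1 counts, and Rpl10l, a gene of the male germ line, had 0, 2, 1 and 2. Both lay about the floor of 3 counts (0.123 to 0.130 CPM), so no ratio is given, while Rpl3 had 99.5 ± 29.0 and Rpl10 33.9 ± 6.12 CPM.

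Further genes of translation were compared from lists. Ribosomal proteins that carry other names include Rack1, a scaffold on the small subunit, at 704, 548, 875 and 603 CPM, and Fau, which is made as a fusion with a ubiquitin-like protein, at 4.12 ± 1.37 CPM. Rack1 was higher in libraries 1 and 3 than in the others. Eef1a1 and Eef2, the elongation factors that deliver tRNA and move the ribosome, had 1335, 1415, 2251 and 1588 CPM and 1125, 1465, 2100 and 1597 CPM. Both had their lowest value in library 1 and their highest in library 3. The other 4 of the 6 elongation genes had libraries 1 and 3 above libraries 2 and 4, as had 23.7% of all tested genes. Among these 4, Eef1b2 had 412, 273, 428 and 293 CPM. The median deviation of the 6 elongation genes was 0.07, -0.20, 0.27 and -0.09. Pabpc1, the poly(A)-binding protein and another mRNA with a terminal oligopyrimidine tract, had 486, 616, 944 and 674 CPM, with the same lowest and highest library. Over the 7 genes of that list the median deviation was -0.11, -0.10, 0.31 and -0.13.

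Factors that build or control ribosomes differed less between libraries than the ribosomal protein genes did, by their median deviations. The 35 ribosome biogenesis genes had median deviations of 0.13, -0.10, 0.07 and -0.13, led by nucleolin (Ncl) at 293 ± 34.0 CPM. In 28 of them libraries 1 and 3 were above libraries 2 and 4, an order found in 23.7% of all tested genes. It held in 58 of 81 ribosomal protein genes, 6 of 12 RNA polymerase I genes and 5 of 17 mTORC1 and translation control genes. The 12 genes of RNA polymerase I stood at 0.15, -0.07, 0.01 and -0.09, with its activator Ubtf at 154 ± 5.45 CPM. The 17 genes of mTORC1 and of translation control stood at -0.10, 0.02, 0.06 and 0.01, led by the nucleic acid binding protein Cnbp at 297 ± 108 and Rptor at 192 ± 35.5 CPM. No gene of these 3 lists, of translation elongation (6 genes), translation initiation (25), other terminal oligopyrimidine mRNAs (7), the MYC network (5 tested) or p53 surveillance (4) passed an adjusted p of 0.05 in edgeR, and 1 had an unadjusted p under 0.05. Of all 14112 tested genes, 463 (3.28%) and 1350 passed these edgeR thresholds. The quasi-likelihood test called no gene in the whole table (658 at an unadjusted p under 0.05). Translation initiation was led by Eif4g2 at 917 ± 31.8 CPM. In 18 of its 25 genes libraries 1 and 3 were above the others, beside 23.7% of all tested genes. Max, the partner of MYC, had 86.4 ± 7.47 CPM, and the p53 regulator Mdm4 had 303 CPM on average.

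The genes most like the median of the 84 across libraries were found by Pearson correlation of log2(CPM + 0.5) over 4 libraries, a description in which all points share the libraries. Of 9248 genes of at least 10 CPM, 1076 (11.6%) had r above 0.9. The 8 closest were LTO1, Naca, Ly96, Iscu, Aif1, Tmem159, Tmem35b and Igfbp4. Naca, which shields new chains at the ribosome exit, had 58.3, 40.6, 53.8 and 42.0 CPM. Aif1, the microglial calcium-binding protein IBA1, had 406, 226, 349 and 238 CPM. In both, libraries 1 and 3 were high and libraries 2 and 4 low.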

How the data were processed

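Poly(A) RNA of CD11b-positive brain cells was sequenced in 4 libraries of 1 group. The authors deposited raw counts per Ensembl gene, on GRCm38, with featureCounts 1.6.5, STAR 2.7.2b and bcl2fastq 2.20.0.422 listed, per the submitters' processing notes. Not given in the sources used here are the annotation release, the strand setting and how multi-mapped reads were treated. Of 55471 identifiers, 55230 matched GENCODE M21, which gave symbols, exonic lengths and transcripts. The other 241 stayed in the totals and held at most 0.00526% of a library. Each library's column was identified by the number that opens its title. Total counts were 24412573, 23036202, 23585261 and 24487418.

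CPM used TMM factors from edgeR 4.0.16 (R 4.3.3), and levels are means ± SD. Genes kept by filterByExpr were tested for spread with an edgeR negative binomial goodness of fit, since a single group has no coefficient for a quasi-likelihood F-test. The test was tried on simulated counts for the same 14112 genes, drawn with the trended dispersion that it assumes. It found 8 of 100 genes raised 2-fold in 1 library, 72 of 100 raised 4-fold, and made 3 false calls. The simulation gave genes of 1 level the same dispersion, so it cannot show how many calls in the real data are false. Alternatives were other scaling, filters, tests (DESeq2 1.42.0 among them), pseudocounts, lengths and each library left out. The members, gene lists and tests were chosen with earlier results of these data known. Genes were named by rule: the 6 highest and 6 lowest by CPM, the 4 highest and 4 lowest per length with at least 90% unique sequence, all paralogue pairs, all called genes, the 5 widest and 5 steadiest of at least 10 CPM, and 12 genes fixed by name. A few genes that these rules select are not reported here. From the lists, up to 3 of the highest genes were named, and likeness was limited to 8 genes. The class of short mRNAs under 1000 nt was added to the planned class by exonic length after the data were seen, as were mRNA length as an alternative and the pattern of libraries 1 and 3 above 2 and 4.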

Additional observations from a re-analysis of the deposited data

Results flagged for a closer look

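In groups of 4, a library was marked when its gap to the nearest other library exceeded Dixon's 95% critical share of the whole range, a rule that chance meets in about 1 of 20 groups. Of 49 values checked, 2 met it. Rpl11 was highest in library 1, at 9.55 CPM against 7.04 to 7.26 in the others, with a gap ratio of 0.915. Rplp2 was highest in library 3, at 242 CPM against 155 to 166 in the others, with a gap ratio of 0.875. Over all 84 genes, 3 met the rule.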

How the results depend on the processing

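The median level of the ribosomal protein genes was 5.49 (log2 of CPM + 0.5) and was 6.76 over the genes with at least 90% unique sequence, and their mean share of counts, 0.922%, was 0.233% for those genes alone. The gap of small minus large subunit genes turned from 0.17 to -0.11 without paralogues and to -0.14 among genes that reached 1 CPM in all libraries. The gap to mitochondrial ribosomal protein genes kept its sign in all 14 alternatives. The count of 3 called members was 0 with the quasi-likelihood test, 0 with DESeq2 dispersion outliers and 0 to 5 with 1 library left out. For all genes the count of 463 was 0 and 5 in those tests, 1058 with a common dispersion and 106 to 425 with 1 library left out. The quasi-likelihood test, with 2.62 prior degrees of freedom, could call few genes. The count of 58 members high in libraries 1 and 3 was 18 when scaled to the homeostatic list, where the share of all tested genes fell from 23.7% to 1.38%. Without division by length the log2 ratios were -1.42 for Rpl7l1, -2.80 for Rpl22l1 and 1.5 for Rps27l. The sizes of the paralogue ratios also depend on the length used. Per kb of the longest coding transcript, mean levels were 31.0 CPM for Rpl7l1 and 189 for Rpl7. They were 31.8 for Rps27l and 13.5 for Rps27, and 2.18 for Rpl39l and 161 for Rpl39. The cause of the other changes was not tested. No paired analysis was possible because there is 1 group. The counts fix levels of rare genes such as Rpl10l and Rpl3l poorly, and shared sequence makes others uncertain.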
